A study of Mus musculus with 18 samples.

Results

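At embryonic day 16.5 (E16.5), the bone marrow hematopoietic progenitor (HP) libraries held a cluster that the deposited annotation names Mono/Mast, and its members were taken as every HP cell of that stage with exactly that name. They numbered 303 of the 56201 cells of the series, with 161 of 560 cells in E16.5 library 1 and 142 of 4752 cells in E16.5 library 2. Since the libraries differed in the share of the cluster, each is given separately, and a share or level is set beside an exact 95% interval that covers counting error only. Both libraries were made from C57B6/J fetal bone marrow pooled over several litters and released from the whole skeleton without the head, after a sort for CD45+ cells that lacked CD4, CD8, B220, Gr-1 and Ter119 and carried surface c-Kit. The later HP libraries, from E18.5, from the day of birth (P0) and from adult C57B6/J mice, were sorted the same way, with 1 library per stage. Nothing in the labels says whether the 2 E16.5 libraries came from separate litters. Adult marrow came from crushed leg, pelvic and spinal bones. Barcoded antibodies were added before sorting, so that RNA molecules (unique molecular identifiers, UMIs) and antibody counts were read from the same cell.

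Tissue macrophages of the fetus arise largely from yolk sac and fetal liver precursors rather than from adult-type marrow monocytes. They take up dying cells and debris through receptors such as Timd4 and the mannose receptor Mrc1, and many carry the hyaluronan receptor Lyve1. They make the C1q subunits of complement and, in blood-forming tissue, recycle iron and support erythroblasts. Mast cells are granular cells that store proteases (Cma1, Cpa3, Tpsb2) and depend on the receptor tyrosine kinase Kit, which mature macrophages lack. T lineage cells are recognised by the CD3 chains and by surface CD90.2.

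Cell barcodes were first compared between libraries. E16.5 library 1 shared 333 of its 560 barcodes with later HP libraries, 46 with E18.5, 153 with P0 and 330 with adult, but 1 with E16.5 library 2. Among Mono/Mast cells of library 1, 88 of 161 shared a barcode with a later library, and these were deeper, at a median of 33196 UMIs against 12227 UMIs in the other 73. The later cell of a pair held a median of 0.953% (E18.5), 1.44% (P0) and 2.12% (adult) of the UMIs of its library 1 partner. In the adult library, 74 of the 120 cells of the cluster named Mast4ii shared a barcode with library 1, 70 of them with a Mono/Mast cell. These 74 cells held C1qa at 1739 CPM (counts of a gene per 1000000 summed UMIs), Mrc1 at 574 CPM and Cma1 at 14106 CPM. Of the later cells named Mono, 0 of the E18.5 cells, 1 of the P0 cells and 9 of the adult cells shared a barcode with library 1. Members of library 2 shared at most 2 barcodes with any other HP library. How the sharing arose was not tested. Some of the results that rest on it are given with and without the cells concerned. Others, among them antibody counts and most levels of single genes, are given with these cells only.

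The cluster held macrophage transcripts that were sparse in the other cells of its libraries. Timd4, the phosphatidylserine receptor for dying cells, stood at 22.0 CPM (17.6–27.2) in library 1 and 15.9 CPM (12.1–20.5) in library 2, against 0.0989 and 0.0217 CPM in all other cells of the same libraries. Lyve1 reached 449 CPM (428–471) and 337 CPM (319–356), against 3.36 and 0.760 CPM outside the cluster. Folr2, a folate receptor of resident macrophages, lay at 168 CPM (156–182) and 102 CPM (91.7–113), and Mrc1 at 660 CPM (634–686) and 453 CPM (432–475). C1qa was the highest of the 5 markers, at 1754 CPM (1713–1796) and 1372 CPM (1334–1410), with 25 and 4.73 CPM in the other cells. All 5 lay above the rest of both libraries. The sum of the cluster also held 21904 and 17864 CPM of 16 mast cell genes, against 3053 and 2280 CPM of the 5 markers, so the label macrophage-like does not describe all its cells. The clusters were made from these same genes, and these levels are a description. Without the members of library 1 that shared a barcode, the summed level of the 5 markers there was 4743 CPM, against 3053 CPM with them. That of the 16 mast cell genes was then 5813 CPM, against 21904 CPM.

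The members of the cluster differed in the mast and T cell genes they held, however. Each member was scored by the share of its UMIs from 16 mast cell genes and from 10 T cell genes, and called mast-high at 1% or more and T-high at 0.1% or more. In library 1, 52 of 161 members (32.3%, 25.2–40.1) were mast-high and 0 were T-high (up to 2.27%). In library 2, 46 of 142 (32.4%, 24.8–40.8) were mast-high and 85 (59.9%, 51.3–68.0) were T-high, 31 of them both. The members low in both lists were 109 of 161 in library 1 (67.7%) and only 42 of 142 in library 2 (29.6%). These classes are ranges of a score and not cell types, but few cells lay near the thresholds. Between 0.5% and 2% mast cell UMIs there were 7 cells in each library, while 99 and 82 members lay under 0.05% and 50 and 40 over 2%. Between 0.05% and 0.2% T cell UMIs there were 0 and 10 cells.

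**Figure D1:**
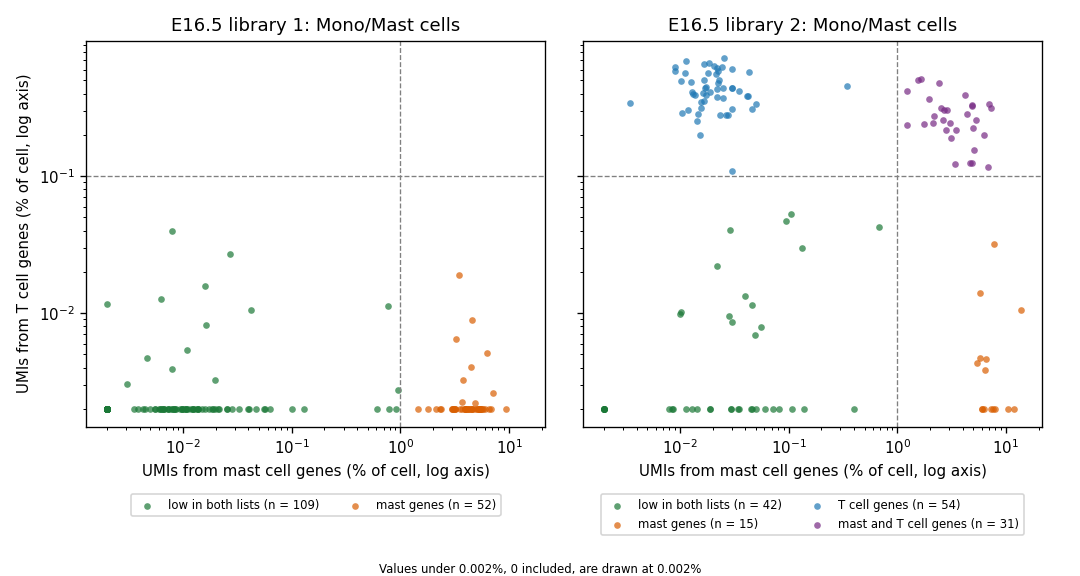
Each point is 1 Mono/Mast cell, placed by the percent of its UMIs from mast cell genes (x) and from T cell genes (y), both on log axes, with dashed lines at the thresholds of 1% and 0.1%. Library 1 shows 109 low and 52 mast-high cells, and library 2 shows 42 low, 15 mast-high, 54 T-high and 31 doubly high cells.

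The libraries also differed in their other cells. T cell clusters made up 18 of 560 cells in library 1 and 2141 of 4752 in library 2, and mast cell clusters 259 and 1804. In library 2, 72 of 1804 mast cluster cells (3.99%, 3.14–5.00) were T-high, and mast-high cells made up 57 of 2141 T cell cluster cells (2.66%, 2.02–3.44). In B cell clusters of library 2, 3 of 181 cells were T-high and 3 mast-high. Shares were mostly higher in its other clusters. In Neu1, 5 of 72 cells were T-high and 7 mast-high, and in HSPC1 16 of 165 and 10. In DC1 they were 5 of 56 and 0, and in Eos/Bas1 4 of 79 and 5. In UD1 they were 55 of 76 and 17, and in UD2 6 of 36 and 9. In library 1, 6 of 29 UD2 cells were mast-high and 1 T-high. Such cells were thus not confined to the Mono/Mast cluster. Among the cells named Mono at later stages, 0 of 489 at E18.5, 21 of 339 at P0 (6.19%) and 0 of 933 in the adult were mast-high, and 1, 3 and 0 were T-high. In library 1, 47 of the 52 mast-high and 41 of the 109 low members were among those with a shared barcode, and without them 5 mast-high and 68 low members remained. These 5 and 68 held a median of 133 and 210.5 UMIs of the macrophage list and 1222 and 1 UMIs of the mast cell list.

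Mast-high and T-high members were deeper than low members. The median depth was 16391 UMIs for low members against 38361 for mast-high members in library 1, where the mast cell clusters lay at 25921. Without a shared barcode these were 12124 UMIs for 68 low and 19547 for 5 mast-high members. In library 2 it was 7888 UMIs for low, 21701 for mast-high, 34210 for T-high and 37505 for doubly high members, with 16625 in mast cell clusters and 21983 in T cell clusters. The macrophage genes took a smaller share of the UMIs of these deeper cells, at a median of 1.67% in low and 0.557% in mast-high members of library 1. Counted in molecules per cell, the classes lay closer together. The median number of UMIs per cell from the 5 markers was 59.0 in low and 61.5 in mast-high members of library 1. In library 2 it was 46.0 in low, 45.0 in mast-high, 65.5 in T-high and 60.0 in doubly high members, and 0 in the mast and T cell clusters. The 16 genes of the broader macrophage list gave a median of 260 UMIs in low and 171 in mast-high members of library 1, and of 124, 92.0, 152 and 112 in the low, mast-high, T-high and doubly high members of library 2.

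The mast and T cell genes of these members gave UMI numbers of the order found in the mast and T cell clusters. Mast-high members held a median of 1458 mast cell UMIs in library 1 and 1497 in library 2, against 1620 and 1327 in the mast cell clusters and 1 and 2 in low members. T-high members held 134.5 T cell UMIs and doubly high members 100, against 107 in the T cell clusters and 0 in low members. Cma1, the mast cell chymase, gave 767 ± 367 UMIs per cell (mean ± SD over 52 cells) in mast-high members of library 1 and 772 ± 374 UMIs in its 259 mast cluster cells. The 5 mast-high members of library 1 without a shared barcode held 462 ± 253 Cma1 UMIs. Single barcodes thus held macrophage UMIs and mast or T cell UMIs together. Whether more than 1 cell shared a droplet was not tested. Scrublet, a doublet caller, marked 1 of 560 and 7 of 4752 cells (0.179% and 0.147%). Among members it marked 1 of the 52 mast-high members of library 1 and 0 of the 142 members of library 2. With so few calls, nothing is read from them, and whether the thresholds suited these libraries was not tested. The median Scrublet scores were 0.0315 in low and 0.0898 in mast-high members of library 1. In library 2 they were 0.0327 in low, 0.0732 in mast-high, 0.0732 in T-high and 0.112 in doubly high members.

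**Figure D2:**
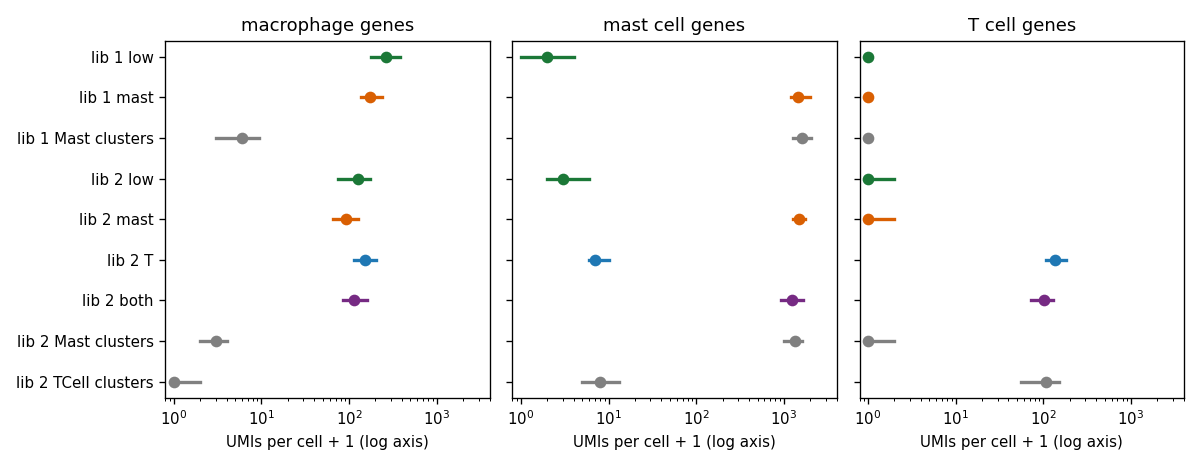
UMIs per cell from macrophage, mast cell and T cell genes (plus 1, log axes) in the classes of Mono/Mast cells (coloured) and in the mast and T cell clusters (grey), with points at the median and bars from the 25th to the 75th percentile. Macrophage medians lie between 92.0 and 152 in the member classes of library 2 and at 2 and 0 in its mast and T cell clusters, and the mast cell median is 1497 in mast-high members against 1327 in the mast cell clusters.

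Both libraries were then clustered again (Leiden, resolution 1) from the same counts, so that this is a description too. The recomputed cluster with the highest marker share held 79 cells of library 1 and 36 of library 2, all of them members, namely 79 low members of library 1 and 33 low and 3 T-high members of library 2. A second recomputed cluster took 80 and 106 members, with 28 and 9 low members, all 52 mast-high members of library 1 and all 15 mast-high, 51 of 54 T-high and all 31 doubly high members of library 2, beside 38 cells that were no members. The cluster with the highest marker share was 14.1% of library 1 and 0.758% of library 2.

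Surface antibodies, which played no part in the classes, differed between them. In library 2, CD90.2, the T cell surface protein Thy1, had a median of 153 counts in T-high and 162 in doubly high members, 2 in low and 3 in mast-high members, and 77 in the T cell clusters. It passed a centered log ratio (CLR) of 1 in 100% of T-high and of doubly high members, in 4.76% of low and in 79.0% of T cell cluster cells. The antibody to CD16 and CD32, Fc receptors of myeloid and mast cells, had a median of 51 counts in mast-high and 54 in doubly high members, 14 in T-high and 10.5 in low members, against 27 in mast and 1 in T cell clusters. T-high members thus had counts of both antibodies, while the T cell clusters had a median of 1 for CD16/32. CD115, the receptor for the macrophage growth factor Csf1, was seen at a CLR above 1 in 50% of low members, 42.6% of T-high, 26.7% of mast-high and 9.68% of doubly high members, at medians of 1 to 2.5 counts. CD43, a sialoprotein of many leukocytes, had a median of 2 counts in low members and 35.5 in T-high members.

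**Figure D3:**
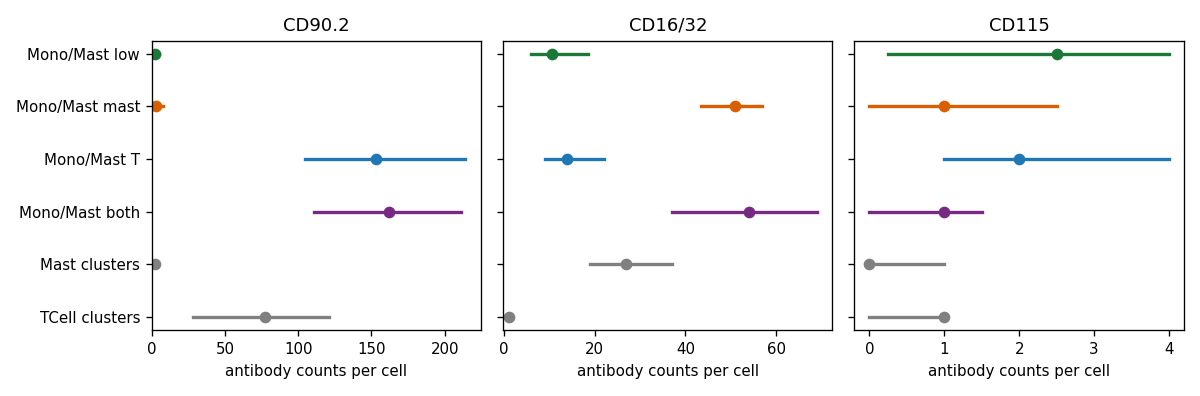
Antibody counts per cell in E16.5 library 2 for CD90.2, CD16/32 and CD115 in the member classes (coloured) and in the mast and T cell clusters (grey), with points at the median and bars from the 25th to the 75th percentile. CD90.2 is high in T-high and doubly high members (medians 153 and 162), CD16/32 in mast-high and doubly high members (51 and 54), and CD115 is low throughout.

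In library 1, 4 antibodies had at least 100 counts, and CD48, a receptor of most leukocytes, had medians of 66 counts in low and 161 in mast-high members and 58 in the mast cell clusters. A single low member held 7394 of the 9919 CD150 counts of the members of that library, so CD150 is not described further there. Over all members, the median count was above that of the other cells for 3 of 4 antibodies in library 1 and 13 of 16 in library 2. The summed antibody counts also differed, at medians of 137 in members and 87 in other cells of library 1, and 204 and 74 in library 2. In library 2 the medians were 41 in low, 89 in mast-high, 255.5 in T-high and 309 in doubly high members. In library 1 they were 93 in low and 185.5 in mast-high members. The classes compared above thus differed in their summed counts.

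Although all cells had been sorted for surface c-Kit, Kit RNA was sparse in low members. Kit stood at 19.6 CPM (38 UMIs in 5 of 109 cells) in library 1 and 15.8 CPM (6 UMIs in 2 of 42 cells) in library 2. It reached 364 and 350 CPM in mast-high members and 516 and 446 CPM in the mast cell clusters. Kit belongs to the mast cell list that set the classes, so its difference between low and mast-high members is a description. With every cell thinned to 1000 UMIs, 0 of 108 and 0 of 41 low members had a Kit UMI, which allows up to 3.36% and 8.60% with a Kit UMI at that depth, compared with 28.4% and 17.9% of the other cells of the libraries. Those other cells include the mast cell clusters. In T cell clusters at that depth, 4 of 18 cells of library 1 and 84 of 2141 of library 2 (3.92%, 3.14–4.83) had a Kit UMI. Sparse Kit RNA was thus not particular to low members in library 2. Low members of library 1 without a shared barcode held no Kit UMI in 68 cells, which allows up to 3.79 CPM at a floor of 3 UMIs, used here for every level of 0 given with a limit. The antibody table has a row for c-Kit (CD117), with 0 counts in all 5 HP libraries, so no surface reading can be set beside this.

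The summed levels of the macrophage genes were highest in low members, and the levels in the following paragraphs are of these cells. C1qb and C1qc, the other C1q chains, lay at 3251 and 2233 CPM in low members of library 1 and 3860 and 2725 CPM in those of library 2. Apoe, a lipid carrier, was the most abundant of the lipid genes, at 9423 and 10860 CPM. The growth factor receptor Csf1r lay at 788 and 594 CPM, the pan-macrophage adhesion receptor Adgre1 (F4/80) at 260 and 272 CPM, and the transcription factor Maf at 1016 and 800 CPM. Summed over all members, 15 of the 16 macrophage genes, 8 of 8 complement genes and 9 of 11 scavenger receptor genes assessed were over 4-fold above the other cells in both libraries, where 253 of the 8028 genes assessed (3.15%) were and 46 (0.573%) were over 4-fold below. Since the clusters were made from these counts, nothing is read from the excess.

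The genes for taking up dying cells and handling their cargo were present at unequal levels. Stab1, a scavenger receptor, lay at 631 and 832 CPM in low members of the libraries, the endocytic adaptor Dab2 at 938 and 1175 CPM and Gas6, the bridging ligand between dying cells and TAM receptors, at 255 and 436 CPM. Mertk, the TAM receptor of macrophages, lay at 67.0 and 58.1 CPM. The haem oxygenase Hmox1 stood at 192 and 206 CPM, the iron exporter Slc40a1 at 60.3 and 116 CPM, and the ferritin chains Ftl1 and Fth1 at 7704 and 5194 CPM in library 1 and 11064 and 6662 CPM in library 2. Genes of erythroblastic island macrophages stood at unequal levels too, and Adgre1 and Maf, given above, belong to that list. Vcam1, an adhesion molecule that binds erythroblasts, lay at 9.80 and 55.5 CPM, Siglec1 (CD169) at 9.80 and 10.6 CPM, Cd163, the haptoglobin-haemoglobin receptor, at 42.3 and 44.9 CPM, and Spic, a factor of red pulp macrophages, at 4.64 and 0 CPM. In the low members of library 1 without a shared barcode Vcam1 lay at 5.06 CPM (1.38–12.9), Siglec1 at 16.4 CPM (8.75–28.1), Cd163 at 26.5 CPM (16.4–40.6) and Spic at 1.26 CPM (0.0320–7.04). The haemoglobin genes Hba-a1 and Hba-a2 gave no UMI in low members of either library.

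Of the chemokines, Pf4 stood at 2370 and 2598 CPM in low members of libraries 1 and 2. Ccl9 lay at 435 and 478 CPM, Ccl6 at 321 and 87.1 CPM and Ccl2, which attracts monocytes, at 128 and 140 CPM. The growth factor Igf1 lay at 80.4 and 190 CPM. The inflammatory cytokines Il1b and Tnf lay at 6.19 and 6.70 CPM in library 1 and at 0 and 7.92 CPM in library 2. Of genes known from microglia, the macrophages of the brain, Fcrls stood at 555 and 937 CPM and P2ry12 at 123 and 68.7 CPM, while Sall1, a defining factor of microglia, was at 12.4 and 2.64 CPM. The osteoclast protease Ctsk lay at 32 and 100 CPM. In the low members of library 1 without a shared barcode Ctsk gave no UMI (up to 3.79 CPM), Ccl2 lay at 43.0 CPM (29.8–60.1) and Il1b at 10.1 CPM (4.37–19.9). Stromal genes were at or near 0, with Col1a1 at 3.09 and 2.64 CPM and Pdgfra at 0 in both.

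Low members were themselves uneven in the markers. In library 1, 48 of 109 had UMIs of at least 3 of the 5 markers and 18 had none, and in library 2 the counts were 31 and 3 of 42. In library 1, Lyve1 was detected in 39 low members, of which 33 also had Folr2 and 37 Mrc1, against 13 and 32 of the other 70. In library 2 Folr2 was found in 10 of 17 low members with Lyve1 and 15 of 25 without (58.8%, 32.9–81.6, and 60%), and Mrc1 in 16 and 18. Timd4 was detected in 19 low members of library 1, 17 of them with Lyve1, and in 6 of the 68 without a shared barcode. In library 2 it was detected in 6 low members, 4 of them with Lyve1. Ccr2, the receptor by which monocytes leave the marrow, was detected in 44 of 109, and these cells were poorer in the resident markers. Lyve1 was found in 8 of the 44 (18.2%, 8.19–32.7) against 31 of the 65 without Ccr2 (47.7%, 35.1–60.5), and Fcrls in 23 of 44 (52.3%, 36.7–67.5) against 58 of 65 (89.2%, 79.1–95.6). In the opposite direction, the MHC class II chain H2-Aa was found in 9 of 44 against 0 of 65, and the invariant chain Cd74 in 32 of 44 (72.7%, 57.2–85.0) against 17 of 65 (26.2%, 16.0–38.5). Cells with Ccr2 were deeper, at a median of 18115 against 14980 UMIs, and the part of depth in these shares was not tested. Among the 68 low members without a shared barcode, Lyve1 was found in 2 of 26 cells with Ccr2 (7.69%, 0.946–25.1) and 20 of 42 without (47.6%, 32–63.6), and H2-Aa in 7 and 0, at median depths of 15914 and 9845 UMIs. In library 2 only 6 of 42 low members had a Ccr2 UMI, too few to set beside this.

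**Figure D4:**
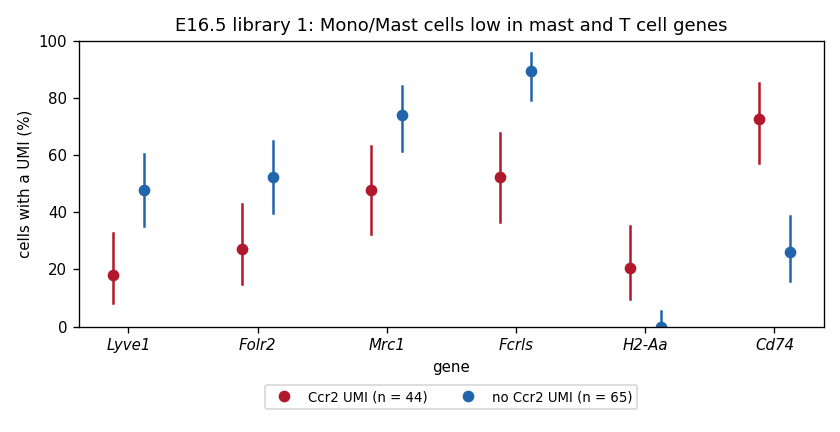
Percent of low Mono/Mast cells of library 1 with at least 1 UMI of each gene (x), for the 44 cells with and the 65 cells without a Ccr2 UMI, with bars for exact 95% intervals. Lyve1, Folr2, Mrc1 and Fcrls are found in fewer of the cells with Ccr2 (Lyve1 18.2% against 47.7%), and H2-Aa and Cd74 in more (Cd74 72.7% against 26.2%).

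The question of which genes differed between the libraries was asked of genes with at least 50 UMIs in the higher library and a ratio of CPM of 4 or more. There was 1 sum per library and no test is possible. Over all members, 48 of 7802 genes (0.615%) were higher in library 1 and 183 (2.35%) in library 2. The genes higher in library 2 were led by T cell genes. Trbc2 and Trbc1, constant regions of the T cell receptor, stood at 1082 and 585 CPM in library 2 and gave no UMI in library 1, at least 1394-fold and 754-fold higher against a floor of 3 UMIs. The granzyme Gzma stood at 807 CPM and 0, and Cd3g at 1451 CPM against 2.85 CPM. Of the 10 genes of the T cell list 9 were called, and all 183 genes lay on the same side in the other cells of the libraries. In low members alone the count was 3 of 3405 genes (0.0881%), of which 0 were among the 183, although only 1 of the 183 had enough UMIs there to be assessed. With all members thinned to the totals of the low members, 30 genes were higher in library 2, all of them among the 183, and 71 in library 1, 20 of them among the 48. Without the members of library 1 that shared a barcode, 404 genes were higher in library 2 and 90 in library 1.

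Among genes at 100 CPM or more, the 10 with the highest ratio in library 1 included 4 of antigen presentation. The interferon-induced gene Ifi27l2a stood at 313 CPM against 38.6 CPM (8.11-fold, 6.81–9.71), Ccr2 at 293 against 37.2 CPM (7.86-fold, 6.58–9.45) and H2-Aa at 143 against 18.9 CPM (7.59-fold, 5.91–9.88). Cd74 lay at 499 against 81.8 CPM (6.10-fold, 5.40–6.90). Of the 8 MHC class II genes 5 were called. Of the 48 genes, 45 lay on the same side in the other cells of the libraries, with H2-Aa at 412 against 99.4 CPM, Cd74 at 873 against 227 CPM and Ccr2 at 50 against 13.9 CPM there, so these differences were not particular to the cluster. These differences stayed in part when only low members were summed, where 39 of 3405 genes (1.15%) were higher in library 1 and 16 of the 48 were called again. Of these 39, 32 lay on the same side in the other cells, and 14 of the 39 were among the 24 called without the low members that shared a barcode. Ccr2 then lay at 502 against 103 CPM (4.88-fold, 3.54–6.90) and H2-Aa at 215 against 34.3 CPM (6.25-fold, 3.61–11.8). Without the low members that shared a barcode the ratio was 6.52 (4.71–9.27) for Ccr2, 11.5 (6.62–21.8) for H2-Aa and 4.63 (3.78–5.72) for Cd74. Few cells carried H2-Aa, with UMIs in 9 of 109 low members of library 1, 7 of 68 without a shared barcode and 2 of 42 in library 2, and the intervals do not cover the spread between cells. The median ratio of library 1 to library 2 in low members was 3.43 for 6 MHC class II genes that were assessed and 1.26 for 15 macrophage genes, beside 1.17 over all genes assessed. The 5 markers, with a median ratio of 1.38 over all members, had one of 0.847 in low members, with 4 of 5 higher in library 2. The 10 immediate early genes assessed were all higher in library 2, at a median ratio of 0.565, where 759 of all 3405 genes assessed were. Fos stood at 166 and 301 CPM and Dusp1 at 49.0 and 137 CPM. These median ratios and levels include the low members of library 1 that shared a barcode, and the median ratios were not computed without them.

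To see where such cells occur over development, marker-positive cells were counted as those with at least 3 of the 5 markers after thinning to 1000 UMIs. They made up 30 of 544 cells in library 1 (5.51%, 3.75–7.78) and 23 of 4733 in library 2 (0.486%, 0.308–0.728). All but 1 in library 1 and all in library 2 were Mono/Mast cells, which are 18.1% and 16.3% of the members at this depth. At E18.5 there were 73 of 2520 (2.90%, 2.28–3.63), with 48 in the cluster named Mono1ii and 21 in Mono1iv, and at P0 23 of 5951 (0.386%, 0.245–0.579), with 21 in Mono1. In the adult there were 3 of 4968 (0.0604%, 0.0125–0.176), all in Mast4ii, the cluster with the shared barcodes above, and the share was 0.0406% without the later cells that shared a barcode with library 1. None was found in the 4 libraries of CD45-Ter119- stromal cells, which allows up to 0.0450% at E16.5, 0.0570% at E18.5, 0.0292% for newborns and 0.0592% for adults. Those cells were sorted as lacking CD45, and the paper removed contaminating blood cells from its processed stromal data. The deposited stromal libraries also hold fewer cells than the paper counted. Nothing is read from this absence.

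The 5 markers were compared with the cells named Mono at later stages. In the cells named Mono, Timd4 stood at 49.9 CPM (44.4–56.0) at E18.5 and 4.52 CPM (2.86–6.78) at P0, and gave no UMI in 933 adult cells. Lyve1 stood at 513 CPM at E18.5, at 104 CPM at P0 and at no UMI in the adult (up to 0.218 CPM), and C1qa at 2262, 1341 and 8.20 CPM. Low members at E16.5 held Lyve1 at 619 and 731 CPM, C1qa at 2501 and 3488 CPM and Mrc1 at 929 and 1278 CPM, against 462 CPM of Mrc1 at E18.5. Folr2 stood at 257 and 296 CPM in low members and 225 CPM at E18.5. Timd4 lay below its E18.5 level, at 38.7 CPM (30.4–48.5) in low members of library 1, or 21.5 CPM (12.5–34.4) without shared barcodes, and at 18.5 CPM (7.43–38.1) in those of library 2. The E18.5 cells were split among clusters. Mono1iv (28 cells) held Timd4 at 452 CPM, Lyve1 at 2306 CPM and C1qa at 5843 CPM, while Mono1ii (129 cells) held Mrc1 at 1158 CPM together with H2-Aa at 2938 CPM. Mono2 at E18.5 (80 cells) held C1qa at 5548 CPM and Fcrls at 2225 CPM with Lyve1 at 4.27 CPM. Stage, cluster and library cannot be told apart in this comparison, since each later stage is 1 library.

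**Figure D5:**
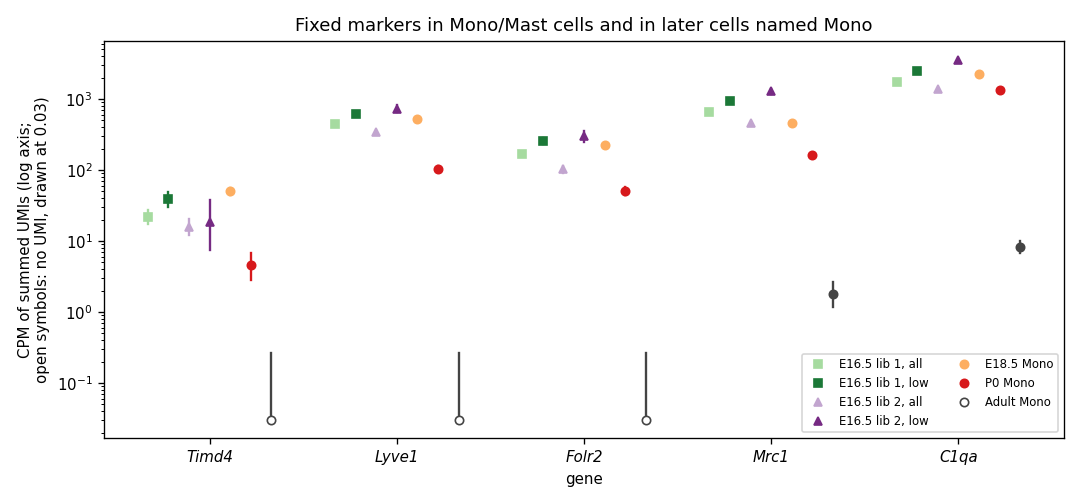
CPM of summed UMIs (log axis) of the 5 markers in all and in low Mono/Mast cells of each E16.5 library and in cells named Mono at E18.5, P0 and adult age, with exact 95% counting intervals and open symbols where no UMI was found. All 5 lie lowest in the adult, with C1qa at 8.20 CPM there against 1341 CPM at P0.

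Genes were then sought that set both E16.5 libraries apart from cells named Mono at all 3 later stages by a fold of 4. Over all members 38 of 6586 genes (0.577%) were higher at E16.5, led by mast cell genes. With library 2 alone 138 genes were higher and 38 lower, and with library 1 alone 73 and 31. Tpsb2 stood at 3592 and 2929 CPM, against 11.3 CPM at E18.5, 258 CPM at P0 and no UMI in the adult. Cpa3 stood at 4933 and 3985 CPM, against 15.7, 577 and 9.87 CPM. Of the 38 genes, 37 were higher in the mast cell clusters of both libraries than in the members. In low members 0 of 1191 genes (0%) were higher. Only 2 of the 38 had enough UMIs to be assessed there, and with all members thinned to the totals of the low members 5 genes were called. Without the members of library 1 that shared a barcode 0 genes were called over all members, while all 38 were called again without the later cells that shared one. In low members without a shared barcode 1 gene was called, Aqp1. Among the genes nearest to the threshold in low members were Emp1, at 204 and 343 CPM against 90.1, 38.9 and 1.38 CPM in the E18.5, P0 and adult cells, Dab2, at 938 and 1175 CPM against 420, 173 and 0.726 CPM, and Stab1, at 631 and 832 CPM against 308, 99.4 and 1.74 CPM.

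Genes lower at E16.5 numbered 10 of 7411 (0.135%) over all members and 17 (0.229%) in low members, with 4 in common. Of the 17, 6 still passed when counts under 3 UMIs were set to 3, namely S100a8, Pglyrp1, Cd24a, Prtn3, Rps27rt and Bcl11a, and all 10 of the former did. Without the low members that shared a barcode 34 genes were called, 13 of them among the 17. Ly6c2, the marker of classical monocytes, stood at 2.33 and 1.89 CPM in all members against 45.7, 22.6 and 1003 CPM in the E18.5, P0 and adult cells. Flt3, a receptor of early progenitors and dendritic cell precursors, was at 2.85 and 0.540 CPM against 35.2, 24.8 and 27.9 CPM. S100a8 and S100a9, calcium-binding proteins of neutrophils and monocytes, gave 3.09 and 0 CPM in low members of library 1 (S100a8 5.06 CPM without shared barcodes) and no UMI in those of library 2, against 131 and 79.7 CPM at E18.5. Mpo, the myeloperoxidase of granule-bearing progenitors, gave no UMI in low members of library 1 and 2.64 CPM in those of library 2, against 28.0, 514 and 3872 CPM.

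Each later stage was also set against low members alone, with counts under 3 UMIs set to 3. Against E18.5, 33 of 8369 genes (0.394%) were over 4-fold lower in both E16.5 libraries and 3 of 1191 (0.252%) higher. The lower genes included 4 of the 8 MHC class II genes assessed, 2 of 16 cytokine and chemokine genes assessed and 0 of 15 immediate early genes assessed. H2-Aa stood at 215 and 34.3 CPM against 1403 CPM, Cxcl2, which attracts neutrophils, at 4.64 (11.4 without shared barcodes) and 63.4 CPM against 319 CPM and Ccl4 at 48.0 and 42.2 CPM against 509 CPM. The 3 higher genes were the mast cell genes Cpa3, Cma1 and Hdc, with Cma1 at 222 and 187 CPM against 15.4 CPM. Cpa3 gave 6.33 ± 34.9 UMIs per low member in library 1 and 5.26 ± 30.6 in library 2 (mean ± SD), at medians of 0. Cma1 gave 3.94 ± 18.3 and 1.69 ± 2.225 UMIs, at medians of 0 and 1. The mast cell share of single low members reached 0.958% and 0.684%, under the threshold of 1%. None of the 3 higher genes was called without the low members of library 1 that shared a barcode, where Cma1 stood at 32.9 CPM (21.5–48.2), Cpa3 at 22.8 CPM and Hdc at 7.58 CPM. Without these cells 1 of 1181 genes (0.0847%) was higher, Aqp1, a water channel of many tissues, which was named after its value was seen and stood at 91.0 and 193 CPM against 18.8 CPM. Lower were then 32 of 8369 genes (0.382%), 25 of them among the former 33, with 2 of 8 MHC class II genes. H2-Aa, at 394 CPM (352–441) in the remaining low members of library 1, was no longer called.

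Against P0, 63 of 8176 genes (0.771%) were lower and 25 of 1191 (2.1%) higher. Lower were 5 of 8 myeloid progenitor genes and 3 of 8 osteoclast genes, and higher were 7 of 8 scavenger receptor genes assessed, Mrc1, Lyve1, Folr2, Cd36, Stab1, Colec12 and Dab2. Mrc1, Lyve1 and Folr2 are also among the 5 markers. Unlike against E18.5, 0 of 3 mast cell genes assessed were higher. Of 12 assessed as lower 3 were called, Cma1, Mcpt4 and Kit, and 4 without the low members that shared a barcode. Low members were chosen for few UMIs of this same list. The P0 cells were not, and 21 of their 339 were mast-high, so nothing is read from these lower mast cell genes. Ctsk stood at 32 and 100 CPM against 418 CPM, and the P0 cluster named Mono1 held 643 CPM while Mono2 held 0.560 CPM. Against the adult, 135 of 9460 genes (1.43%) were lower and 193 of 1191 (16.2%) higher. Higher were 13 of 13 macrophage genes, 11 of 19 lysosome genes and 6 of 6 complement genes assessed, and lower were 5 of 8 myeloid progenitor and 4 of 5 neutrophil genes. These lists overlap. C1qb and C1qc count in both the macrophage and complement lists, and Cd68 and Ctss in both the macrophage and lysosome lists. The genes assessed as higher had at least 50 UMIs in low members, and those assessed as lower had at least 50 UMIs in the later cells. Both sets thus passed through the group in which they are high, here and against E18.5, and these counts are a description. Without the low members that shared a barcode, 35 (2.96%) were higher than at P0 and 198 (16.8%) than in the adult, 24 and 187 of them among the former.

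The phase calls differed between the classes. The deposited phase calls put 59.6% (49.8–68.9) of low members of library 1 and 61.9% (45.6–76.4) of those of library 2 in G1, against 42.3% and 53.3% of mast-high members. Only 1.85% of T-high and 12.9% of doubly high members were in G1, beside 4.72% of the T cell clusters and 44.7% of the mast cell clusters of library 2. Mki67, a proliferation marker, lay at 274 and 156 CPM in low members and 266 CPM in T-high members. In the 68 low members of library 1 without a shared barcode it lay at 53.1 CPM (38.3–71.8), and 67.6% (55.2–78.5) of them were in G1. Depth differed between the classes as given above, and its part in the phase calls was not tested. The deposited hscScore, a measure of likeness to hematopoietic stem cells, was 0.0690 ± 0.0707 (mean ± SD over 161 cells) in members of library 1 and 0.0484 ± 0.075 (142 cells) in members of library 2. The other cells of the libraries averaged 0.0613 and 0.0477. Low members averaged 0.0894 in library 1 (0.122 without shared barcodes) and 0.131 in library 2, and T-high members 0.00656. The clusters named HSPC (hematopoietic stem and progenitor cells) averaged 0.0712 and 0.0754, less than low members. The cluster named Eos/Bas of library 2 averaged 0.141 and the E18.5 cells named Mono 0.116. A higher score was thus not particular to stem cell clusters, and the part of depth in it was not tested.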

How the data were processed

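Per the study's methods and the submitters' processing notes, the authors aligned reads to mm10 with Cell Ranger 3.1.0 and worked in R 4.0 with Seurat 3.1.5. They deposited raw UMI counts of 20275 genes in 56201 cells, counts of 29 antibodies, and metadata with cluster names, cell cycle phases, the mitochondrial fraction and the hscScore, which is a score. The authors took the cells in the top percentiles (98 and up) of UMI or gene number as putative doublets and removed them, and cells with 7.5% or more mitochondrial or fewer than 300 UMIs. The library totals were 13974733 and 95833532 UMIs.

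The members and the 33 gene lists (334 genes) were chosen with earlier results of these data known, and the division by mast and T cell genes was made after seeing the data. UMIs were summed per library and group and given as CPM, with exact Poisson intervals for levels, Clopper-Pearson intervals for shares and conditional binomial intervals for ratios, all at 95% and for counting error only. Since each stage after E16.5 is 1 library, no test was made. Genes were called at a fold of 4 with at least 50 UMIs. This rule was tried on simulated counts with counting error only, at the depth of all members. The simulation held no spread between cells or libraries and changed only well counted genes. It thus does not cover low members or changed genes near 50 UMIs. Any gene of the lists and any antibody could be named, and in each comparison the 10 genes each way with the highest ratio at 100 CPM or more, without mitochondrial and ribosomal protein genes and Gm42418. Genes named because they were called in low members (Pglyrp1, Cd24a, Rps27rt and Bcl11a) were chosen after their values were seen. CLR was computed per antibody within a library, over antibodies with at least 100 counts. Python 3.11.15, scanpy 1.11.5 and, for TMM factors, edgeR 4.0.16 were used.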

Additional observations from a re-analysis of the deposited data

How the results depend on the processing

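No paired analysis was possible because the results come from no test and each later stage has 1 library. The main limits are the low number of UMIs in low members of library 2, the shared barcodes of library 1 and the lack of replicates after E16.5. Alternatives that use low members, thinning to their totals or shared barcodes were chosen after seeing the data. The cause of each change was not tested.

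Recomputed clusters gave a share of 14.1% in library 1 and 0.758% in library 2. The summed level of the 5 markers, 3053 and 2280 CPM, was 3718 and 3468 CPM as a mean over cells, 4212 and 3168 CPM without mitochondrial and ribosomal protein genes, 4345 and 5812 CPM in low members, and 4743 CPM in library 1 without shared barcodes. The summed mast cell genes, 21904 and 17864 CPM, were 14485 and 16355 CPM as a mean over cells, 875 and 1061 CPM in low members, and in library 1 5813 CPM without shared barcodes and 21729 CPM without the Scrublet call. Without shared barcodes, library 1 held 5 mast-high and 68 low members.

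The genes higher in library 1 and 2 (48 and 183) numbered 486 and 580 at a fold of 2, 11 and 118 at a fold of 8, 105 and 307 at a minimum of 20 UMIs, and 90 and 404 without shared barcodes. Those of library 2 numbered 3 in low members and 30 after thinning. The genes higher and lower than at later stages (38 and 10) numbered 84 and 42 at a fold of 2 and 21 and 4 at a fold of 8. They ranged from 73 to 138 and from 31 to 38 when 1 E16.5 library was left out. In low members they numbered 0 and 17, and the higher ones 5 after thinning and 0 without shared barcodes. Without shared barcodes, low members gave 24 in place of 39 genes higher in library 1 and 7 in place of 3 in library 2. Against all later stages they gave 1 in place of 0 genes higher and 34 in place of 17 lower, and against E18.5 alone 1 in place of 3 higher.

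Marker-positive cells in library 1 made up 11.9% at 2 markers, 2.02% at 4 markers, 8.74% at 2000 UMIs and 15.4% unthinned. In library 2 these were 1.33%, 0.0634%, 1.12% and 2.59%. CD48 passed the threshold in 62.1% and 70.4% of members of libraries 1 and 2 at a CLR of 0.75, 16.8% and 22.5% at 1.5, and 37.6% and 9.52% of low members, and in 87.0% of library 1 with CLR over both libraries. CD16/32 did so in 85.2% at 0.75, in 50% at 1.5 and in 50% of low members, and CD90.2 in 4.76% of low members.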
